A study of Homo sapiens with 12 samples.

Results

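The 8 genes described here encode subunits of AMP-activated protein kinase (AMPK) and the kinases that switch it on. They are the catalytic alpha subunits PRKAA1 and PRKAA2, the scaffold beta subunits PRKAB1 and PRKAB2, the nucleotide-binding gamma subunits PRKAG1 and PRKAG2, and the upstream kinases STK11 (LKB1) and CAMKK2. They were chosen by name, as pathway components, among 18417 genes that had a probe set annotated to 1 symbol. Each member had 1 such probe set, so 8 probe sets of 33297 were used. Of the members, 7 passed the filter on dim genes and were tested, and PRKAG2 did not. The cells were HepG2, a human hepatoma line long in use, and carried either a hairpin that targets p53 (sh-p53) or a non-relevant control hairpin (sh-con). The 6 groups were sh-p53 cells with AICAR, with Nutlin or with DMSO, and sh-con cells with AICAR, with Nutlin or with DMSO. AICAR was used at 0.5 mM and Nutlin at 10 uM, each for 24 h, and DMSO was the solvent control. Every group had 2 Affymetrix arrays from biological duplicates. All groups carry a hairpin, and the labels name 1 line per hairpin, so the knockdown and any other difference between the lines cannot be told apart.

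AMPK is a heterotrimer that senses cellular energy. A catalytic alpha subunit binds a beta subunit, which holds the complex together and carries a glycogen-binding module, and a gamma subunit, which binds AMP, ADP and ATP. LKB1 phosphorylates the activation loop of alpha when AMP or ADP occupies gamma, and CaMKK2 does so when calcium rises. In liver the active kinase restrains fatty acid, sterol and glucose synthesis and favours fatty acid oxidation. Cells take up AICAR and convert it to ZMP, which mimics AMP on the gamma subunit. Nutlin frees p53 from MDM2, the ligase that marks it for destruction, and PRKAB1 has been described as a p53 target gene. Arrays read transcripts only, and neither the protein nor the phosphorylation of any subunit was measured.

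Values were on the log2 scale of the deposited table, and a fold change of 1 is a doubling. The array medians lay between 5.64 and 5.84. Those of the AICAR arrays, 5.76 to 5.84, lay above all DMSO arrays (5.64 to 5.68) and all Nutlin arrays (5.65 to 5.74). Duplicates correlated across genes at Pearson r = 0.983 to 0.994, and the 2 sh-con AICAR arrays were the least alike, with an SD of their difference of 0.302. The hairpin was checked by CDKN1A, a p53 target that inhibits the cell cycle, since the p53 transcript was not analysed here. It read 6.14 and 6.32 in sh-p53 DMSO arrays, against 7.06 and 6.93 in sh-con DMSO arrays. With Nutlin it read 7.61 and 7.63 in sh-p53, against 9.92 and 9.76 in sh-con. CDKN1A was thus lower in sh-p53 in both treatments, by 0.76 on the log2 scale in DMSO (limma adjusted p = 0.00625). The sh-p53 line still responded to Nutlin. CDKN1A rose by 1.39 in sh-p53 (adjusted p = 6.67e-05) and 2.84 in sh-con, and the responses differed by -1.45 (adjusted p = 3.82e-05). MDM2, also a p53 target, rose by 1.32 in sh-p53 (adjusted p = 9.08e-05) and 1.59 in sh-con, and that difference of -0.27 did not pass the test (adjusted p = 0.481). CDKN1A also rose with AICAR, by 1.76 in sh-p53 (limma adjusted p = 4.26e-08) and 2.27 in sh-con (adjusted p = 2.25e-09). MDM2 changed with AICAR by 0.17 in sh-p53 (adjusted p = 0.33) and 0.69 in sh-con (adjusted p = 0.000603). Neither AICAR response differed between the lines by the test (adjusted p = 0.24 for CDKN1A and 0.227 for MDM2). Of 9 hepatocyte markers measured, all lay between 10.8 and 12.8 on average, and their summed level was 15.07 to 15.23 in sh-p53 arrays, against 15.24 to 15.35 in sh-con arrays. None of 5 endothelial markers reached the dim-gene level. Adding the markers of muscle, fibroblasts and leukocytes, 9 of 13 measured did. In these bulk cultures, a change in the mix of cell states and a change of RNA per cell cannot be told apart.

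Sequence before the start of 4 members is shown because these are the subunit genes that changed with Nutlin in sh-con cells. CAMKK2 changed too, but its RefSeq window lies inside the gene and is not printed. The stretches come from RefSeq on GRCh38.p14, read 5′ to 3′ on the strand of the gene, and end at the outermost annotated start. PRKAB1 covers chr12:119667883-119667951 on the plus strand, PRKAB2 chr1:147172471-147172720 on the minus strand, PRKAG1 chr12:49018777-49019026 on the minus strand and PRKAA2 chr1:56645064-56645313 on the plus strand. The PRKAB1 stretch is shorter because its window runs past another start of the gene. Capitals mark GC boxes (GGGCGG or CCGCCC) and CCAAT boxes (CCAAT or ATTGG).
PRKAB1: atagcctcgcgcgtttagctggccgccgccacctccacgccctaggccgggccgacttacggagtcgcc
PRKAB2: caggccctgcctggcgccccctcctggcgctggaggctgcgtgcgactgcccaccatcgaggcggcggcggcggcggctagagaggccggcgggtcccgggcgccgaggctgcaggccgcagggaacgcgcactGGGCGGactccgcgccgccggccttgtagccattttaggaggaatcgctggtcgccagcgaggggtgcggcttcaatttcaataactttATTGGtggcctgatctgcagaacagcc
PRKAG1: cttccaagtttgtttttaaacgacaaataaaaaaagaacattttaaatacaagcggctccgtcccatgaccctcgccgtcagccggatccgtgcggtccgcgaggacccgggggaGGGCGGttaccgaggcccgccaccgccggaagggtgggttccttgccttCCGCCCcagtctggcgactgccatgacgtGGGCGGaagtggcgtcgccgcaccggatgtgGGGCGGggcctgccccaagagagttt
PRKAA2: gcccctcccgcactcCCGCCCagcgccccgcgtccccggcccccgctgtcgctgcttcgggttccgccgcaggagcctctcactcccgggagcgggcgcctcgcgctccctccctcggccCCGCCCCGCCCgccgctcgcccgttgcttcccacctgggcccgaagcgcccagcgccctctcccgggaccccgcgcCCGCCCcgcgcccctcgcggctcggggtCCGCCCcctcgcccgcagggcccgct

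All 8 members matched the RefSeq table, with 12 windows of 250 bases before a start, 5 of them of PRKAG2. Both strands were searched, and overlapping matches were counted separately. The PRKAA2 window held 5 GC boxes and was 83.2% G or C, the PRKAG1 window held 4, the PRKAB2 window held 1 beside a CCAAT box, and the PRKAB1 window held neither. The 12 windows ranged from 43.6% to 86% G or C, where the median of all windows was 58%. GC boxes occurred in 8 of the 12 windows, against 42.6% of 35116 windows of all genes, and CCAAT boxes in 4 of 12, against 32% of all. These shares were not matched for G or C content. The 10-base half-site of p53 occurred in 0 of the 12, against 5.57% of all. The E-box CACGTG and the cyclic AMP element TGACGTCA were also found in 0 of 12, against 6.34% and 1.65% of all. A missing match says only that these letters are not in these 250 bases.

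The first comparison asks how the transcripts of the kinase and its activators stood after 24 h of an AMPK activator. With AICAR, both catalytic subunits and none of the other members were called in sh-p53 cells, and both were lower. In sh-con cells PRKAA2 and CAMKK2 fell and PRKAB1 rose. Calls are limma's moderated test at a Benjamini-Hochberg adjusted p under 0.05 over the 13813 genes tested. In sh-p53 cells 2 of 7 members were lower and 0 higher, where 21.6% of all genes tested were lower, 16.2% were higher and 37.8% were called in either direction. In sh-con cells 2 of 7 were lower and 1 higher, where 23.2% of all genes were lower, 14.6% were higher and again 37.8% were called. The median change of the 7 members was -0.31 in sh-p53 cells and -0.21 in sh-con cells, beside 0.07 and 0.04 over all genes. Centring each array on its median moved the change of the median gene by -0.15 in sh-p53 and -0.14 in sh-con, and the share of calls that were higher was then 23.1% and 22%, against 42.8% and 38.7% without it. The summed level of the leukocyte markers was 9.12 to 9.26 in AICAR arrays, against 8.27 to 8.66 in DMSO arrays, carried by CD68 and CD14. PTPRC, the defining leukocyte marker, averaged 3.26 and lay below the dim-gene level.

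The second comparison asks which members moved with Nutlin, the compound that frees p53 from MDM2. The p53 protein was not measured, and the p53 target CDKN1A rose with AICAR too. With Nutlin, no member was called in sh-p53 cells, while in sh-con cells PRKAB1, PRKAB2 and PRKAG1 rose and PRKAA2 and CAMKK2 fell. Thus 0 of 7 were called in sh-p53 cells by limma, and 0 had an unadjusted p under 0.05, where 0.0796% of all genes tested (11 genes) were called. In sh-con cells 3 of 7 were higher and 2 lower, where 11.3% of all genes were higher, 18.9% were lower and 30.3% were called. The median change of the members was 0.02 in sh-p53 cells and -0.02 in sh-con cells, beside -0.02 and 0.01 over all genes. Both compounds of a line were set against the same DMSO arrays.

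**Figure D1:**
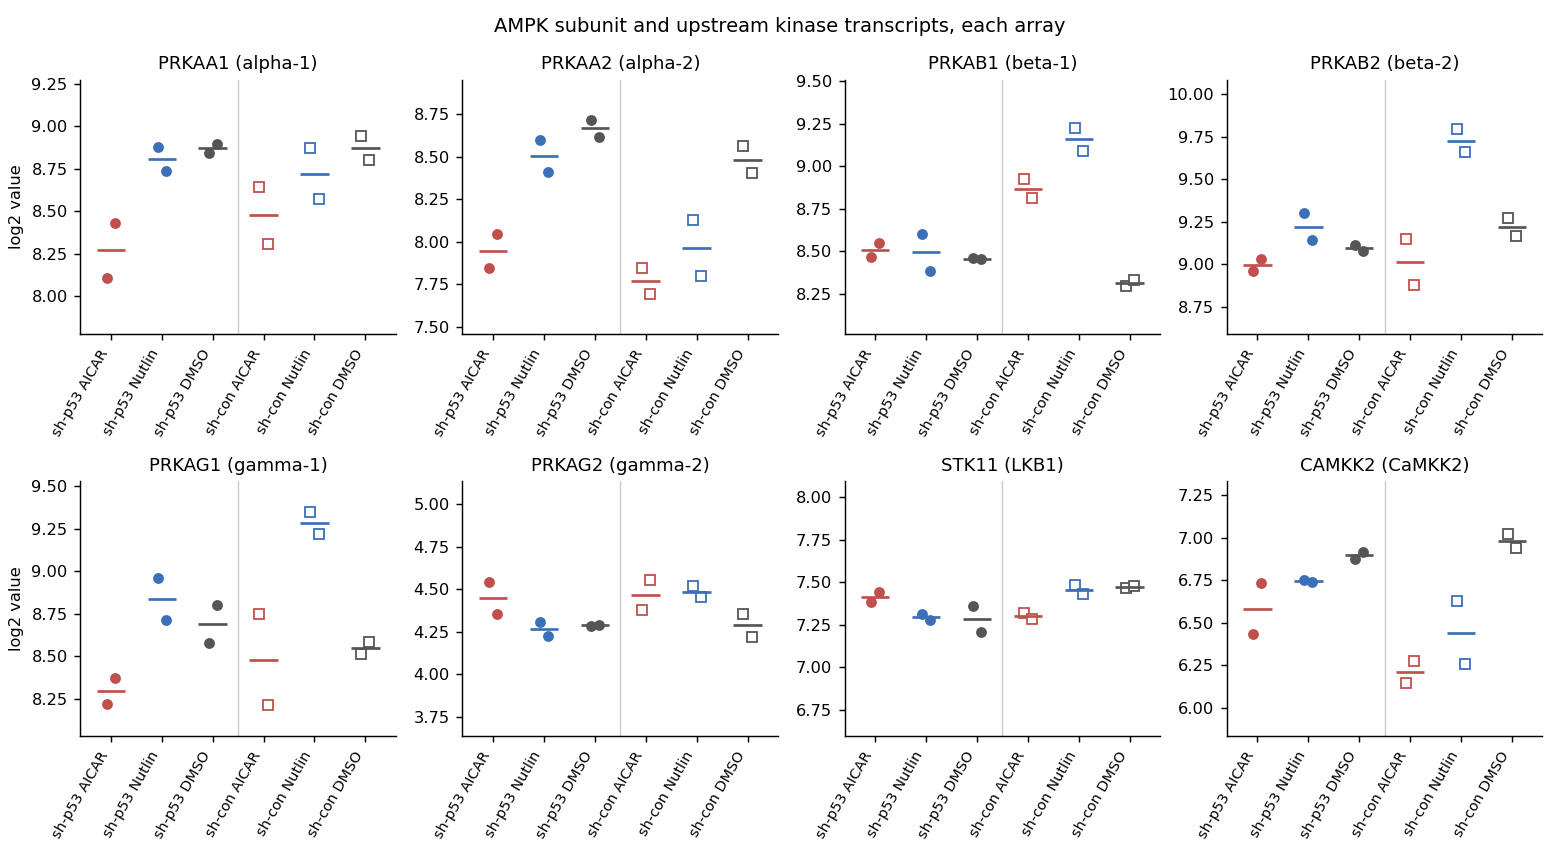
Level of each of the 8 genes on every array, as log2 values, with 1 panel per gene and the same span of 1.5 log2 units in each. Filled circles are sh-p53 arrays, open squares sh-con arrays and horizontal bars the mean of the 2 arrays. PRKAB1 is highest in the sh-con Nutlin arrays, at 9.23 and 9.09, and CAMKK2 lowest in the sh-con AICAR arrays, at 6.14 and 6.27.

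Of the catalytic subunit genes, PRKAA2 fell with AICAR in both lines, and PRKAA1 fell in sh-p53 but did not pass the test in sh-con. PRKAA2 (probe set 7901720), which encodes alpha 2, read 7.85 and 8.04 in sh-p53 AICAR arrays, against 8.72 and 8.62 in sh-p53 DMSO arrays. It read 7.84 and 7.69 in sh-con AICAR arrays, against 8.56 and 8.40 in sh-con DMSO arrays. All AICAR arrays lay below all DMSO arrays, including across the lines. The change was -0.72 ± 0.15 in sh-p53 (SE, limma adjusted p = 0.00101), a 1.65-fold decrease, and -0.72 ± 0.15 in sh-con (adjusted p = 0.00107). The responses differed between the lines by -0.01 (95% interval -0.45 to 0.44). With Nutlin PRKAA2 read 8.60 and 8.41 in sh-p53 arrays, below both DMSO arrays, with a change of -0.16 (interval -0.48 to 0.15) that did not pass the test. In sh-con Nutlin arrays it read 8.13 and 7.80, and it fell by 0.52 on the log2 scale (adjusted p = 0.0144), or 1.44-fold. That call was lost without sh-con DMSO replicate 1 (-0.44, adjusted p = 0.146) and without sh-con Nutlin replicate 2 (-0.36, adjusted p = 0.195).

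PRKAA1 (probe set 8111796), the gene of alpha 1, read 8.11 and 8.43 in sh-p53 AICAR arrays, against 8.84 and 8.90 in sh-p53 DMSO arrays. It read 8.64 and 8.31 in sh-con AICAR arrays, against 8.94 and 8.80 in sh-con DMSO arrays. In each line the AICAR arrays lay below the DMSO arrays, but the AICAR duplicates were over 0.3 apart. PRKAA1 fell in sh-p53 by 0.60 on the log2 scale (SE 0.16, limma adjusted p = 0.00692), or 1.52-fold, and this call was lost without sh-p53 AICAR replicate 1 (-0.44, adjusted p = 0.111). In sh-con the change was -0.40 (95% interval -0.74 to -0.06, adjusted p = 0.0587). It passed the test after centring on array medians (-0.54, adjusted p = 0.0208) and with trend and robust moderation (adjusted p = 0.0345). It also passed with a stricter filter on dim genes (adjusted p = 0.0472). Without sh-con AICAR replicate 1 the change was -0.57. Among the 20 alternatives it ranged from -0.57 to -0.23 and was called in 4, counting fits with an array left out. PRKAA1 did not pass the test with Nutlin. It read 8.88 and 8.74 in sh-p53 Nutlin arrays and 8.87 and 8.57 in sh-con Nutlin arrays, overlapping the DMSO arrays of each line.

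Both beta subunit genes rose with Nutlin in sh-con and were not called in sh-p53. PRKAB1 (probe set 7959123), which encodes beta 1, read 8.60 and 8.38 in sh-p53 Nutlin arrays, against 8.46 and 8.45 in sh-p53 DMSO arrays. In sh-con it read 9.23 and 9.09 in Nutlin arrays, against 8.29 and 8.33 in DMSO arrays. The sh-con groups were separated by over 0.7, whereas the sh-p53 DMSO values fell between the 2 Nutlin values. PRKAB1 rose in sh-con by 0.85 ± 0.13 (SE, limma adjusted p = 0.000111), or 1.80-fold, and 8.25% of all genes tested had a larger absolute change. In sh-p53 the change was 0.04 (95% interval -0.25 to 0.32). With AICAR it read 8.46 and 8.55 in sh-p53, against the sh-p53 DMSO values above, a change of 0.05 (interval -0.23 to 0.33). It read 8.92 and 8.81 in sh-con AICAR arrays, a rise of 0.56 ± 0.13 (adjusted p = 0.00326), or 1.47-fold. Both increases in sh-con were called under every other setting and without each array in turn.

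PRKAB2 (probe set 7919305), the gene of beta 2, read 9.30 and 9.14 in sh-p53 Nutlin arrays, against 9.11 and 9.08 in sh-p53 DMSO arrays. It read 9.80 and 9.66 in sh-con Nutlin arrays, against 9.27 and 9.17 in sh-con DMSO arrays, and these groups did not overlap. It rose in sh-con by 0.51 ± 0.14 (SE, limma adjusted p = 0.0112), or 1.42-fold, while the change in sh-p53 was 0.13 (95% interval -0.17 to 0.42). The call in sh-con was lost without sh-con DMSO replicate 2 (0.45, adjusted p = 0.0805) and without sh-con Nutlin replicate 1 (0.44, adjusted p = 0.0784). AICAR left PRKAB2 without a call, at 8.96 and 9.03 in sh-p53 and 9.15 and 8.88 in sh-con. The changes were -0.10 in sh-p53 (adjusted p = 0.58) and -0.21 in sh-con (adjusted p = 0.244).

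Of the gamma subunit genes, PRKAG1 (probe set 7962935) was well measured. It read 8.96 and 8.71 in sh-p53 Nutlin arrays, against 8.58 and 8.80 in sh-p53 DMSO arrays, and these overlapped. It read 9.35 and 9.22 in sh-con Nutlin arrays, against 8.51 and 8.58 in sh-con DMSO arrays. PRKAG1 rose in sh-con by 0.74 ± 0.17 (SE, limma adjusted p = 0.00312), or 1.67-fold, and was called under every other setting and without each array in turn. The change in sh-p53 was 0.15 (95% interval -0.21 to 0.50). With AICAR it read 8.22 and 8.37 in sh-p53, below both DMSO arrays, with a change of -0.39 (interval -0.75 to -0.04, adjusted p = 0.0752). This passed the test after centring (-0.54, adjusted p = 0.0241) and with trend and robust moderation (adjusted p = 0.046). It also passed in a fit of only those groups (adjusted p = 0.0292). Among the 20 alternatives the change in sh-p53 ranged from -0.54 to -0.28 and was called in 5, counting fits with an array left out. The sh-con AICAR arrays read 8.75 and 8.21, on either side of the DMSO arrays, and the change there was -0.07 (interval -0.42 to 0.29). Among alternatives it ranged from -0.34 to 0.20.

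PRKAG2 (probe set 8143961) was dim on every array, between 4.22 and 4.55, with a mean of 4.37 against the dim-gene level of 4.58. With no detection call, such values were not told apart from background, so no level of gamma 2 is read from this probe set. Fitted without the filter, its changes with AICAR were 0.16 in sh-p53 (adjusted p = 0.371) and 0.18 in sh-con (adjusted p = 0.316). With Nutlin in sh-con the change was 0.20 (adjusted p = 0.274).

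Of the upstream kinases, CAMKK2 fell with both compounds in sh-con and STK11 was not called. CAMKK2 (probe set 7967127), the calcium-dependent activator, read 6.43 and 6.73 in sh-p53 AICAR arrays, against 6.87 and 6.92 in sh-p53 DMSO arrays. It read 6.14 and 6.27 in sh-con AICAR arrays, against 7.02 and 6.94 in sh-con DMSO arrays. The AICAR arrays lay below the DMSO arrays in both lines. CAMKK2 fell in sh-con by 0.77 on the log2 scale (SE 0.15, limma adjusted p = 0.000588), or 1.71-fold, and was called under every other setting and without each array in turn. In sh-p53 the change was -0.31 (95% interval -0.63 to 0.00, adjusted p = 0.109). It passed the test in 1 of 20 alternatives, centring (-0.47, adjusted p = 0.0337), and ranged from -0.47 to -0.16 among them. With Nutlin CAMKK2 read 6.75 and 6.74 in sh-p53, a change of -0.15 (interval -0.47 to 0.17). It read 6.63 and 6.26 in sh-con, where it fell by 0.54 (adjusted p = 0.0122), or 1.45-fold. The call was lost without sh-con DMSO replicate 1 (-0.50, adjusted p = 0.101) and without sh-con Nutlin replicate 2 (-0.36, adjusted p = 0.191).

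STK11 (probe set 8024204), the gene of LKB1, was called in no comparison. Its values spanned 7.21 to 7.48 over the 12 arrays, the narrowest range of the 7 tested members. With AICAR the change was 0.13 in sh-p53 (95% interval -0.14 to 0.40) and -0.17 in sh-con (interval -0.44 to 0.10). With Nutlin it was 0.02 in sh-p53 (interval -0.25 to 0.29) and -0.02 in sh-con (interval -0.29 to 0.25). A p that misses the threshold does not show that STK11 was unchanged, and these intervals reached -0.44.

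**Figure D2:**
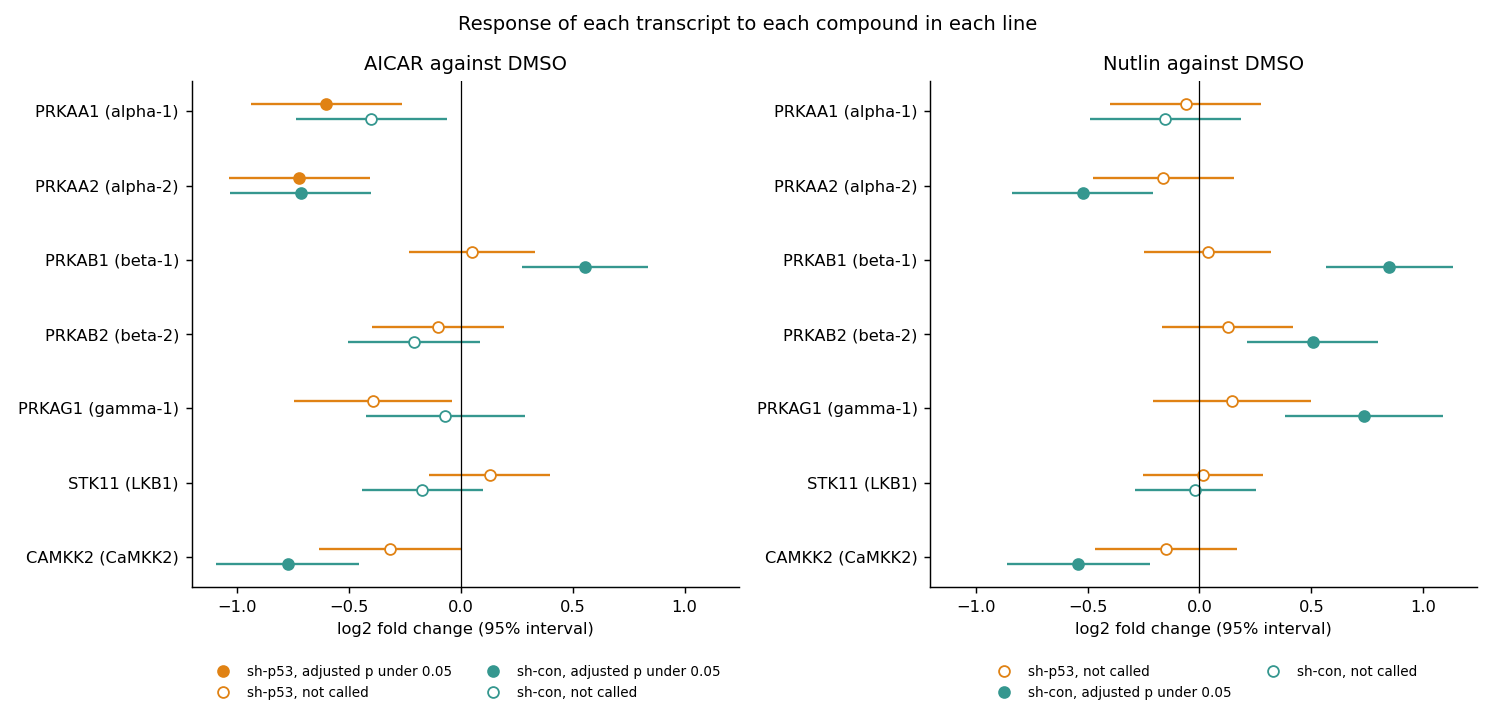
Change of each tested gene with AICAR and with Nutlin, as log2 fold change against DMSO with its 95% interval, in sh-p53 and in sh-con cells. Filled points have a limma adjusted p under 0.05. With Nutlin 5 genes are filled in sh-con and none in sh-p53, and PRKAA2 lies at -0.72 with AICAR in both lines.

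In DMSO the comparison of the lines asks whether the hairpin moved the members without a compound. No member was called, and the changes were small. By limma 0 of 7 passed, and 0 had an unadjusted p under 0.05, where 0.644% of all genes tested (89 genes) were called, 0.261% higher and 0.384% lower. STK11 read 7.36 and 7.21 in sh-p53, below the 7.47 and 7.48 of sh-con, with a change of -0.19 (95% interval -0.46 to 0.08). PRKAB1 and PRKAA2 lay above sh-con on both sh-p53 arrays, by 0.15 and 0.18 on average. PRKAB2 and CAMKK2 lay below on both, with changes of -0.13 and -0.09, and PRKAA1 and PRKAG1 overlapped. The median of the members was 0.00, as over all genes. Between the lines under Nutlin, values are given with no test. With Nutlin the mean of sh-p53 minus that of sh-con was -0.67 for PRKAB1, -0.51 for PRKAB2, -0.45 for PRKAG1 and -0.16 for STK11. For these genes all sh-p53 arrays lay below all sh-con arrays, as for the dim PRKAG2 (-0.22). It was 0.54 for PRKAA2 and 0.30 for CAMKK2, with all sh-p53 arrays above, and PRKAA1 overlapped (0.09). The share of all genes without overlap between the lines was not computed, so these separations are given as values only.

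The interaction tests whether the response to a compound differed between the lines. For Nutlin PRKAB1 was the member called, with a response lower in sh-p53 than in sh-con by 0.81 on the log2 scale. Thus 1 of 7 members was lower, where 2.73% of all genes tested were lower, 4.67% were higher and 7.4% were called. The PRKAB1 difference was -0.81 ± 0.19 (SE, 95% interval -1.21 to -0.41, limma adjusted p = 0.0106). It was lost, at nearly the same size, without sh-con DMSO replicate 1 (-0.79, adjusted p = 0.0578), without sh-con Nutlin replicate 1 (-0.75, adjusted p = 0.0537) and without sh-p53 Nutlin replicate 2 (-0.70, adjusted p = 0.0501). The difference was -0.59 for PRKAG1 (interval -1.09 to -0.09, adjusted p = 0.167). This difference passed in 1 of 20 alternatives, a further quantile normalisation (-0.68, adjusted p = 0.0444). It was -0.38 for PRKAB2 (interval -0.79 to 0.04), 0.36 for PRKAA2 (interval -0.09 to 0.81) and 0.39 for CAMKK2 (interval -0.06 to 0.84). Although these 4 genes were called with Nutlin in sh-con and not in sh-p53, a difference between the lines was not shown for them.

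For AICAR 0 of 7 members had a called interaction by limma, where 1.01% of all genes tested (140 genes) did, and 2 had an unadjusted p under 0.05. These were PRKAB1, at -0.51 ± 0.19 (SE, 95% interval -0.91 to -0.11, adjusted p = 0.239), and CAMKK2, at 0.46 ± 0.21 (interval 0.01 to 0.91, adjusted p = 0.386). The PRKAB1 rise and the CAMKK2 fall with AICAR were called in sh-con and not in sh-p53, but their difference did not pass the test. Nor did that of PRKAA1, called in sh-p53 and not in sh-con, at -0.20 (interval -0.68 to 0.28, adjusted p = 0.804).

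**Figure D3:**
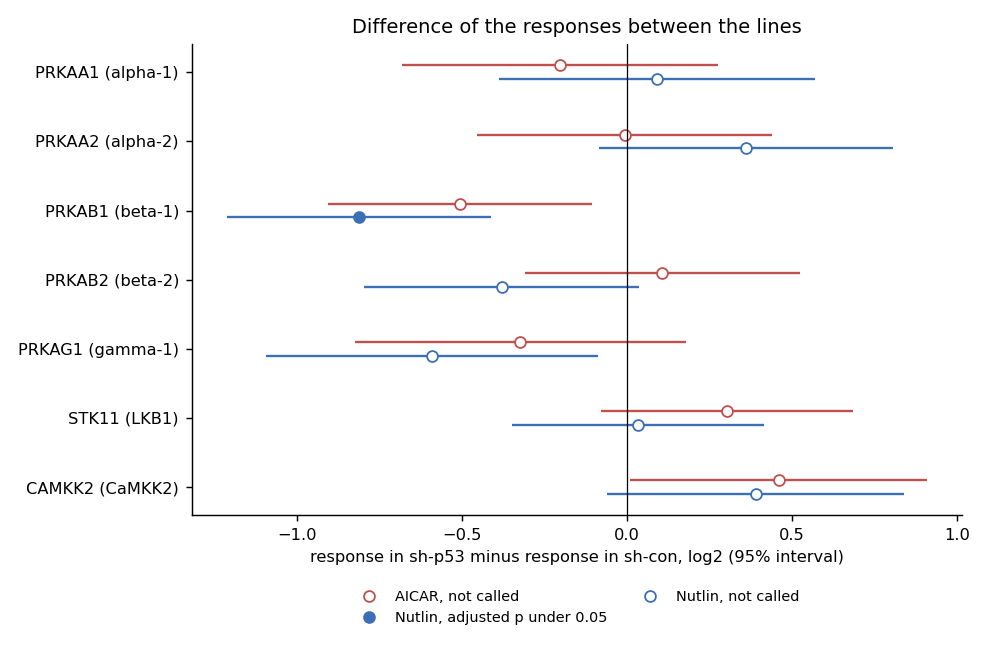
Difference of the response between the lines, sh-p53 minus sh-con, in log2 units with its 95% interval, for AICAR and for Nutlin in the 7 tested genes. A filled point has a limma adjusted p under 0.05. PRKAB1 with Nutlin, at -0.81, is the filled point.

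The compounds were also set against each other in sh-con cells, as transcripts at 24 h of 10 uM Nutlin and 0.5 mM AICAR, doses that are not matched. PRKAB2 and PRKAG1 were higher with Nutlin. Thus 2 of 7 members were higher and 0 lower, where 17.9% of all genes tested were higher and 34.8% were called. The difference was 0.71 ± 0.14 for PRKAB2 (SE, limma adjusted p = 0.000544), or 1.64-fold. For PRKAG1 it was 0.81 ± 0.17 (adjusted p = 0.000984), and without sh-con AICAR replicate 2 it was 0.54 (adjusted p = 0.0222). PRKAB1, which rose with both, was 0.29 ± 0.13 higher (adjusted p = 0.106). It passed in 1 of 20 alternatives, a further quantile normalisation (0.34, adjusted p = 0.0154). PRKAA2 and CAMKK2, which fell with both, differed by 0.19 (adjusted p = 0.371) and 0.23 (adjusted p = 0.273).

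For each member called with a compound, the genes with the most similar profile were found by the root mean square distance between centred log2 profiles over the 12 arrays. This is a description of the same arrays. Nearest to PRKAB1 were MRI1 at 0.0882, EPS8L2 at 0.0916 and PLEKHF1 at 0.0920, where the median gene lay at 0.376. With Nutlin they changed by 0.04, 0.03 and 0.02 in sh-p53, and by 0.75, 0.82 and 0.82 in sh-con. Nearest to PRKAA2 were NONO at 0.0797, CHD1L at 0.0835 and AAAS at 0.0850, with the median gene at 0.442. PRKAA1 had LRIF1, ATF2 and COG7 as its neighbours, the closest at 0.0631. PRKAB2 had TOM1, LONP2 and CTTN, the closest at 0.0689. PRKAG1 and CAMKK2 had more distant ones, SLC9A8, CNOT6 and CTBS from 0.106 and IPO5, SETD2 and MAPKAPK5 from 0.0997.

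**Figure D4:**
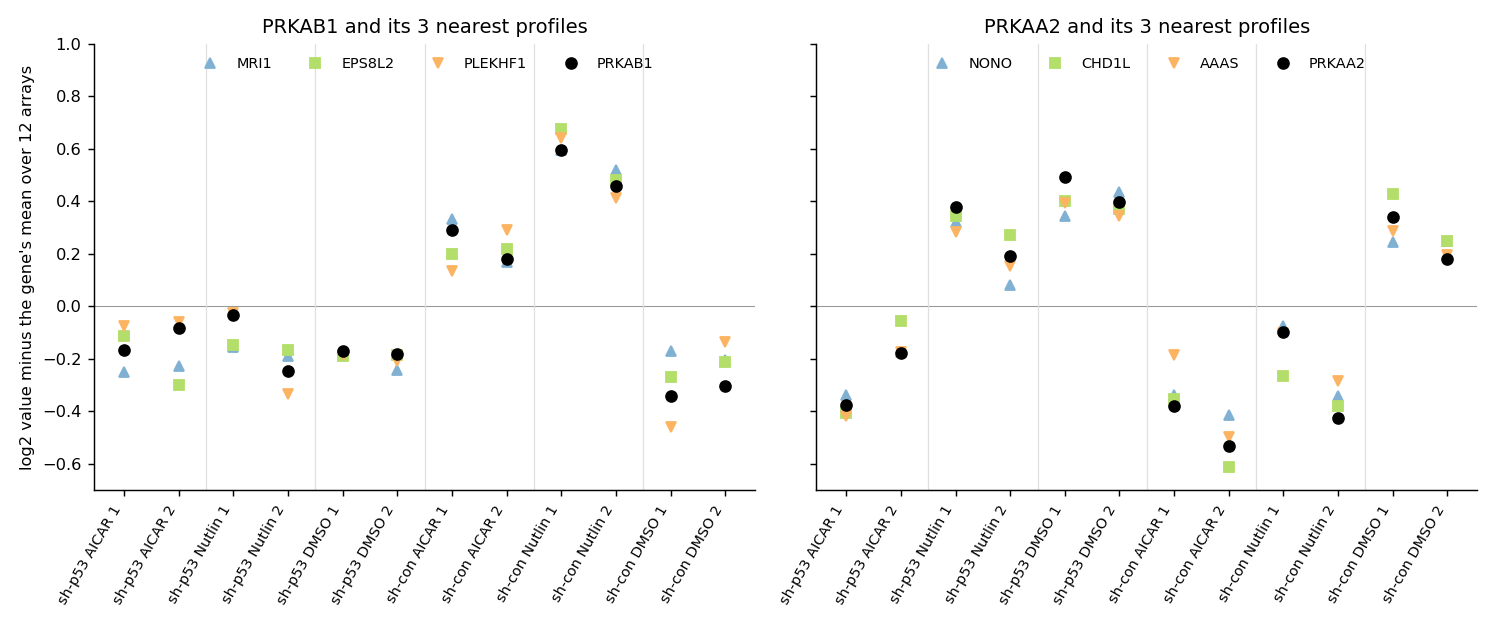
Centred log2 level of PRKAB1 and of PRKAA2 on the 12 arrays, each with the 3 genes whose profile was nearest. The PRKAB1 neighbours MRI1, EPS8L2 and PLEKHF1 lie at 0.0882, 0.0916 and 0.0920 log2 units from it, and all 4 genes are high in the sh-con Nutlin arrays.

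Other genes of the pathway were counted from lists by role. Of the partners of LKB1 and CaMKK2 and other upstream kinases, 5 of 6 were tested. With AICAR 1 was lower in sh-p53, STRADA (the pseudokinase that activates LKB1, -0.72 ± 0.15, SE), and 1 in sh-con, CAMKK1 (a paralogue of CAMKK2, -0.51 ± 0.15). In sh-con AICAR arrays STRADA read 6.38 and 5.94, below the 6.53 and 6.58 of DMSO, without a call. CAMKK1 read 5.18 and 5.04 in sh-p53 AICAR arrays, against 4.96 and 4.83 in DMSO. In sh-con it read 4.48 and 4.60 with AICAR, around the dim-gene level of 4.58, against 4.94 and 5.15 in DMSO. In the AICAR interaction 0 of these 5 were called, where 1.01% of all genes were. With Nutlin 0 were called in either line. LKB1 also activates the AMPK-related kinases, of which 10 of 12 were tested. With AICAR 1 was higher and 3 lower in sh-p53, and 3 higher and 3 lower in sh-con. SIK3 changed by -0.51 in sh-p53 and -1.23 in sh-con, and SIK2 by -0.49 and -0.82. MARK3 read 7.49 and 7.78 in sh-p53 AICAR arrays, against 8.46 and 8.57 in DMSO. In sh-con it read 8.33 and 8.06, against 8.69 and 8.57. NUAK2 read 6.17 and 5.98 in sh-p53 AICAR arrays, against 5.72 and 5.53 in DMSO. In sh-con it read 6.27 and 5.96, against 5.43 and 5.50. With Nutlin 0 were called in sh-p53, and 3 were higher and 1 lower in sh-con. NUAK2 was among these, at 0.74 ± 0.15 in sh-con. Its Nutlin response was lower in sh-p53 by 1.01 on the log2 scale (limma adjusted p = 0.00364), which made it the related kinase called in the Nutlin interaction as PRKAB1 was.

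Regulators of AMPK and of its nucleotides had 15 of 18 genes tested. With AICAR 3 were higher and 4 lower in sh-p53, and 4 higher and 6 lower in sh-con. SESN1, a sestrin that binds AMPK and a p53 target, rose by 1.10 in sh-p53 and 1.47 in sh-con. FNIP1, a folliculin partner that binds AMPK, fell by 1.00 in sh-p53 and 1.20 in sh-con. With Nutlin 1 was higher in sh-p53, SESN1 at 0.89, and 7 were higher and 3 lower in sh-con. SESN1 read 8.59 and 8.30 in sh-p53 Nutlin arrays, against 7.55 and 7.55 in DMSO. In sh-con it read 10.00 and 9.87, against 8.37 and 8.37, so its DMSO level was lower in sh-p53. In the Nutlin interaction SESN2, PPM1A and AK1 were lower, by 1.05, 0.99 and 0.94 on the log2 scale. PPM1A encodes a phosphatase that removes the activating phosphate of AMPK, and AK1 encodes an adenylate kinase that turns ADP into AMP and ATP.

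Substrates, with some other genes of the same pathways such as CPT1A and GPAM, were counted in 2 lists. Of those in lipid and glucose metabolism 17 of 20 were tested. With AICAR 2 were higher and 4 lower in sh-p53, with a list median of -0.12, and 2 higher and 9 lower in sh-con, with a median of -0.41. TBC1D4, which restrains glucose transporter traffic, changed by -1.40 ± 0.17 in sh-p53 and -1.69 ± 0.17 in sh-con (SE). TXNIP rose by 1.32 ± 0.16 in sh-p53 and 1.67 ± 0.16 in sh-con. ACACA, the carboxylase that commits acetyl-CoA to fatty acids, fell by 0.52 with AICAR in sh-p53 and by 0.86 in sh-con. With Nutlin 0 of this list were called in sh-p53, and 2 were higher and 5 lower in sh-con. The higher genes were CPT1A, which admits fatty acids to mitochondria (1.31), and GPAM, an enzyme of triglyceride synthesis (0.81), and ACACA fell by 0.63. The Nutlin response of CPT1A was lower in sh-p53 by 1.10 on the log2 scale (limma adjusted p = 0.00598). Of substrates in growth and autophagy 12 of 13 were tested. With AICAR 4 were higher and 3 lower in sh-p53, and 1 higher and 3 lower in sh-con, and with Nutlin 0 were called in sh-p53, and 1 was higher and 1 lower in sh-con. RPTOR, the mTORC1 scaffold that AMPK phosphorylates, changed by -1.56 ± 0.14 in sh-p53 and -1.92 ± 0.14 in sh-con (SE). The counts of all these lists stand beside the shares over all genes, which were 37.8% called with AICAR in each line, 0.0796% with Nutlin in sh-p53, 30.3% with Nutlin in sh-con (11.3% higher and 18.9% lower) and 7.4% in the Nutlin interaction.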

How the data were processed

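Per the labels' protocols, 200 ng of HepG2 total RNA per array (TRI reagent) was biotin-labelled for Affymetrix arrays. The deposited values were log2 values, from 2.14 to 14.33. The submitters' processing notes name RMA and Partek without versions, and the sources used here do not give the build of the probe design. RMA normalises arrays to a common distribution, and the values carry no detection call. All 12 columns matched a title.

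Of 33297 probe sets, the platform annotation gave 1 symbol to 19460 and several to 1754, and did not list 12083. A gene was its brightest single-symbol probe set. Of 18417 genes, 4604 averaged below the 25th percentile (4.58) and were left out as dim, and 13813 were tested. One limma model (version 3.58.1, R 4.3.3) took the means of the 6 groups, with 6 residual and 11.3 prior degrees of freedom, 2-sided, with Benjamini-Hochberg adjustment within each of 8 comparisons. With 2 arrays per group, the spread behind the p-values is that between duplicates, pooled over the 6 groups and moderated across genes. Depth has no counterpart on arrays, and the number of arrays limits precision. The fit was run on simulated data with independent noise on each array and changes larger than any of the members. This checks the code and does not show how well changes of the members' size are found. Promoter windows were RefSeq's, on GRCh38.p14.

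All members were named, with up to 4 called genes of largest change eligible per list, the 3 nearest profiles, and CDKN1A and MDM2. The members and lists were chosen with earlier results of these data known, and support nothing by themselves. Alternatives covered the filter, probe set choice, scaling, moderation, groups in the fit, the replicate block and leaving out each array.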

Additional observations from a re-analysis of the deposited data

Results flagged for a closer look

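The response of PRKAB1 to Nutlin differed between the lines by a test of the difference itself. It was lower in sh-p53 than in sh-con by 0.81 on the log2 scale (-0.81 ± 0.19, SE, limma adjusted p = 0.0106), from a change of 0.04 in sh-p53 and 0.85 in sh-con. The call was lost without sh-con DMSO replicate 1 (-0.79), without sh-con Nutlin replicate 1 (-0.75) and without sh-p53 Nutlin replicate 2 (-0.70). With 1 line per hairpin, the knockdown and other differences between the lines cannot be told apart.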

How the results depend on the processing

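Over 8 comparisons, 8 planned settings and 12 left-out arrays, no called change of a member reversed. The members called with AICAR in sh-p53 were 4 after centring on array medians, against 2, and 1 to 3 with an array left out. With Nutlin in sh-con they were 3 to 5 with an array left out, against 5. In the Nutlin interaction they were 2 after a further quantile normalisation, against 1, and 0 to 1 with an array left out. With the replicate number as a block the members called were 2 and 3 with AICAR in sh-p53 and sh-con, 0 and 5 with Nutlin, 0 in DMSO, 0 and 1 in the AICAR and Nutlin interactions and 2 between the compounds, and no member's call changed. Deviations of same-numbered arrays correlated at 0.252 to 0.567 among the sh-con groups and sh-p53 Nutlin, at 0.264 between sh-p53 DMSO and sh-p53 AICAR, and at -0.558 to 0.0277 between these sets, so the numbers were not taken as pairs. With numbers crossed in the sh-p53 DMSO and AICAR groups, a choice made after seeing the data for which only counts were computed, 4 members were called with AICAR in sh-p53 and 2 in the Nutlin interaction, and the genes called were 147 against 11 with Nutlin in sh-p53, 6476 against 4179 in sh-con, 198 against 89 in DMSO, 778 against 140 and 2165 against 1022 in the AICAR and Nutlin interactions. Genes called with Nutlin in sh-p53 were 67 in a fit of only those groups and 26 with trend and robust moderation. In DMSO 175 were called in a fit of only those groups. In the AICAR interaction 348 were called after a further quantile normalisation, 274 with trend and robust moderation and 89 after centring, when 16.9% of calls were higher, against 30%. With an array left out, genes called fell to as few as 3361 and 3173 with AICAR in sh-p53 and sh-con, 5 and 2061 with Nutlin, 42 in DMSO, and 40 and 653 in the interactions. Without either sh-con AICAR array, those with Nutlin in sh-p53 were 23, against 11. The cause was not tested. Low signal limits PRKAG2.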

Other observations

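PRKAG3, the gamma subunit gene known from skeletal muscle, averaged 4.64, just above the dim-gene level, and was called in no comparison. With Nutlin its change was 0.11 in sh-p53 (limma adjusted p = 0.965) and 0.31 in sh-con (adjusted p = 0.13). Among substrates in growth and autophagy, KLC2, FOXO3 and ULK1 rose with AICAR in sh-p53, by 0.71, 0.66 and 0.61. Their changes in sh-con were 0.33, 0.38 and 0.29, which did not pass the test, and no difference between the lines was called (adjusted p = 0.426, 0.745 and 0.553). ULK1 starts autophagy, FOXO3 is a transcription factor and KLC2 is a kinesin light chain. In DMSO NUAK1, an AMPK-related kinase, was 0.90 ± 0.16 higher in sh-p53 than in sh-con (SE, adjusted p = 0.00669).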
